A study of Mus musculus with 9 samples.

Results

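DNA methylation of cytosines in CpG pairs is placed by DNA methyltransferases and removed, in part, by oxidation and repair. The 10 genes described here cover that cycle: the maintenance methyltransferase gene Dnmt1 with its recruiting factor Uhrf1 and the related Uhrf2, the de novo methyltransferase genes Dnmt3a and Dnmt3b with their catalytically inactive cofactor Dnmt3l, the 5-methylcytosine dioxygenase genes Tet1, Tet2 and Tet3, and Tdg, which encodes the glycosylase that excises oxidised cytosines. They were matched by gene symbol, and were chosen with earlier results of these data known. All 10 matched exactly 1 transcript cluster each, the array's unit of gene-level signal, out of 39601 clusters with a gene symbol and 65956 clusters in all. In the authors' annotation the maintenance genes lie at chr9:20907206-20959888 (Dnmt1, minus strand), chr17:56303321-56323486 (Uhrf1, plus) and chr19:30030513-30093726 (Uhrf2, plus). The de novo genes lie at chr12:3806007-3914443 (Dnmt3a), chr2:153649449-153687730 (Dnmt3b) and chr10:78041947-78063622 (Dnmt3l), all on the plus strand. The dioxygenase genes lie on the minus strand at chr10:62804570-62899118 (Tet1), chr3:133463677-133544390 (Tet2) and chr6:83362373-83441678 (Tet3), and Tdg lies at chr10:82629828-82650799 on the plus strand.

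RNA was measured on 9 whole-transcript Affymetrix mouse arrays, 3 per group. The adult group was living Sox2-GFP+ cells sorted by flow cytometry from the labial cervical loop, the epithelial stem cell niche at the base of the ever-growing mouse incisor, of mice at postnatal day 30. The embryo group was living Sox2-GFP+ cells sorted in the same way from the incisor epithelium of embryos at E14.5, and the third group was purchased mouse embryonic stem cells (mESC), which carried no stated reporter. Both dental groups share the Sox2-GFP reporter and the dissociation and sort, which the mESC samples are not stated to have had, and every dental sample drew on more than 1 animal. The labels call all samples biological replicates. The strain of the mice, the line and culture medium of the mESC and whether their 3 samples came from separate cultures are not given in the sources used here. P-values then reflect only the scatter among the arrays, part of which may be technical. In bulk RNA of this kind, fewer cells that express a gene and less RNA per cell cannot be told apart.

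In mammals the DNMT1 protein copies methylation onto the new DNA strand after replication, guided by UHRF1, which reads hemimethylated CpG sites. DNMT3A and DNMT3B methylate sites anew, and DNMT3L stimulates them in early embryos and germ cells. TET proteins oxidise 5-methylcytosine stepwise, after which the mark is lost by dilution at replication or by TDG and base excision repair. Mouse embryonic stem cells are known for high Tet1, Dnmt3b and Dnmt3l expression, and Tet3 is known from the oocyte and from differentiated cells.

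By most of their defining markers, the arrays matched their labels. The 9 measured pluripotency markers, Nanog and Dppa5a among them, averaged 5.22 to 5.3 log2 units on the adult arrays, 5.01 to 5.24 on the embryo arrays and 11.72 to 11.83 on the mESC arrays. Of these 9, 7 were lower in adult and 8 in embryo cells than in mESC. Means of Klf4 were 10.16 in adult, 7.95 in embryo and 11.02 in mESC, and those of Tbx3 were 6.08, 6.89 and 6.96. The 10 dental epithelium markers, such as Krt14 and Shh, averaged 11.29 to 12 on the adult, 11.56 to 12.19 on the embryo and 7.18 to 7.4 on the mESC arrays. Against mESC, 8 were higher in adult cells and 0 lower, and 8 were higher in embryo cells and 1 lower. Epcam and Cdh1 were also high in mESC, with means of 11.45 and 14.97 in adult, 12.4 and 13.88 in embryo, and 12.31 and 15.04 in mESC. Markers of other cell types were higher on the adult arrays. Of 14 macrophage and leukocyte markers, 13 were higher in adult than in embryo cells and 0 lower, with means over the list of 8.88 to 9.09 on the adult, 4.67 to 5.42 on the embryo and 5.37 to 5.47 on the mESC arrays. Of these 14 genes, 0 had an adult mean below 4.81, the median signal of the negative-control probe sets, against 9 for embryo and 7 for mESC. Mesenchyme markers were higher in adult cells for 6 of 12 and lower for none, with list means of 8.9 to 11.06 on the adult, 6.63 to 7.99 on the embryo and 6.21 to 6.97 on the mESC arrays. Of 7 ameloblast genes, 4 were higher in adult than in embryo cells, 0 were lower and 3 were not called (median difference 9.68). Their list means were 12.04 to 14.68 on the adult, 5.49 to 6.06 on the embryo and 4.43 to 5.32 on the mESC arrays. Amelx, Ambn and Enam averaged 19.02, 19.37 and 18.96 in adult cells. Of all clusters, 2.83% were called higher in adult minus embryo. These markers move with every adult difference below, and their part in it was not tested. Adult replicate 1 deviated most from its group (SD of 0.264 over clusters), the remaining arrays by 0.151 to 0.202. In the names of a second deposited table's columns, 2 of the 3 embryo columns share a label, so both may come from 1 sample. With these 2 averaged into 1, adult minus embryo was -2.52 for Uhrf1 and -1.24 for Dnmt1, close to the values below.

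The promoters of Dnmt1 and Uhrf1 are shown because these were the members that differed most clearly between the dental stages. The sequences are RefSeq's, in GRCm38.p6 coordinates, from 250 bases before to 50 bases after an annotated start, 5′ to 3′ on the gene's strand. Capitals mark E2F-type words (TTTCCCGC, TTTGGCGC or TTTCGCGC on either strand), the kind of site through which E2F factors act on replication genes. Of 17 annotated starts of the 10 members, these were the 2 that held such a word. The windows were picked for that word and are not the annotated starts nearest to those of the clusters. The Dnmt1 window lies at chr9:20952574-20952873 on the minus strand and the Uhrf1 window at chr17:56304063-56304362 on the plus strand.
Dnmt1: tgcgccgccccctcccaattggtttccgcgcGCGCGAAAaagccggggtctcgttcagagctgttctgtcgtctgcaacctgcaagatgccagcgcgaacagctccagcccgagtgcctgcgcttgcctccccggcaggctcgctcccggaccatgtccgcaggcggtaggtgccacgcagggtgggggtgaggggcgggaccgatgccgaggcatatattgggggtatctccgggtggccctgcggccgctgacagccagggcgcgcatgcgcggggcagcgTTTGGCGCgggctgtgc
Uhrf1: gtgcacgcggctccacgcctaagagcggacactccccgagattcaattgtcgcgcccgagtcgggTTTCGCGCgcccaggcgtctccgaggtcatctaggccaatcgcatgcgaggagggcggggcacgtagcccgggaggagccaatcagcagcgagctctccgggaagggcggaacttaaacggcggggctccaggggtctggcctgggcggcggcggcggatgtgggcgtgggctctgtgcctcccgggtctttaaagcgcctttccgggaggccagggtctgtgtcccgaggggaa

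TTTGGCGC began 33 bases after the Dnmt1 start and TTTCGCGC, read on the opposite strand, 219 bases before it. In Uhrf1, TTTCGCGC began 185 bases before the start. Across all 32851 promoter windows of this length, 1.84% held at least 1 of the 3 words, so the match is a description of these windows and not evidence of binding. Both windows held 33 CG pairs, more than 91.4% of all windows, and each of the words contains CG. The share among windows equally rich in CG was not computed and may be higher. These starts lie 7265 bases (Dnmt1) and 992 bases (Uhrf1) inside the array clusters. Other annotated starts of both genes (2 for Dnmt1, 1 for Uhrf1) held none of the words, and the array signal is a sum over the gene that does not separate starts.

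The promoters of Dnmt3b and Dnmt3l are set beside them because both genes were high in mESC and low in the dental cells, while their windows differ in CpG content. Capitals here mark CG pairs. The Dnmt3b window is chr2:153649199-153649498 and the Dnmt3l window, the annotated start nearest to that of the cluster, is chr10:78042037-78042336, both on the plus strand.
Dnmt3b: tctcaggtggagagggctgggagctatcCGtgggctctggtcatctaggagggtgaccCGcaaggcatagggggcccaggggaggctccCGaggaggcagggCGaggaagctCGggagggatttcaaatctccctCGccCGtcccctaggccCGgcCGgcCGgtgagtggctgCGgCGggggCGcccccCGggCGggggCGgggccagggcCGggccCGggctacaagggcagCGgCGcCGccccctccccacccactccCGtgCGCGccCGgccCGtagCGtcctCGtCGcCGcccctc
Dnmt3l: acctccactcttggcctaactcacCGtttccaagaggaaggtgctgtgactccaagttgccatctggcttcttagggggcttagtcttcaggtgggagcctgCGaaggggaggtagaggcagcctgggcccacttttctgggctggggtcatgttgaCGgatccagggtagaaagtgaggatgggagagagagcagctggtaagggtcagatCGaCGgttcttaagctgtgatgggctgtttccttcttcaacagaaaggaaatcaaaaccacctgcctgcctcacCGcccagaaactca

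The Dnmt3b window held 30 CG pairs, more than 88.3% of all windows, and the Dnmt3l window held 6, more than 43.6% of them. The median over all windows was 7. The octamer ATTTGCAT, the kind of site bound by POU factors such as OCT4, was in 0 of the 17 member windows, and in 1.74% of all windows. The most CG-rich window among the members was that of Tet2 with 57, and the CG-poor end was an upstream Dnmt1 start, at chr9:20959839-20960138, with 2.

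**Figure D1:**
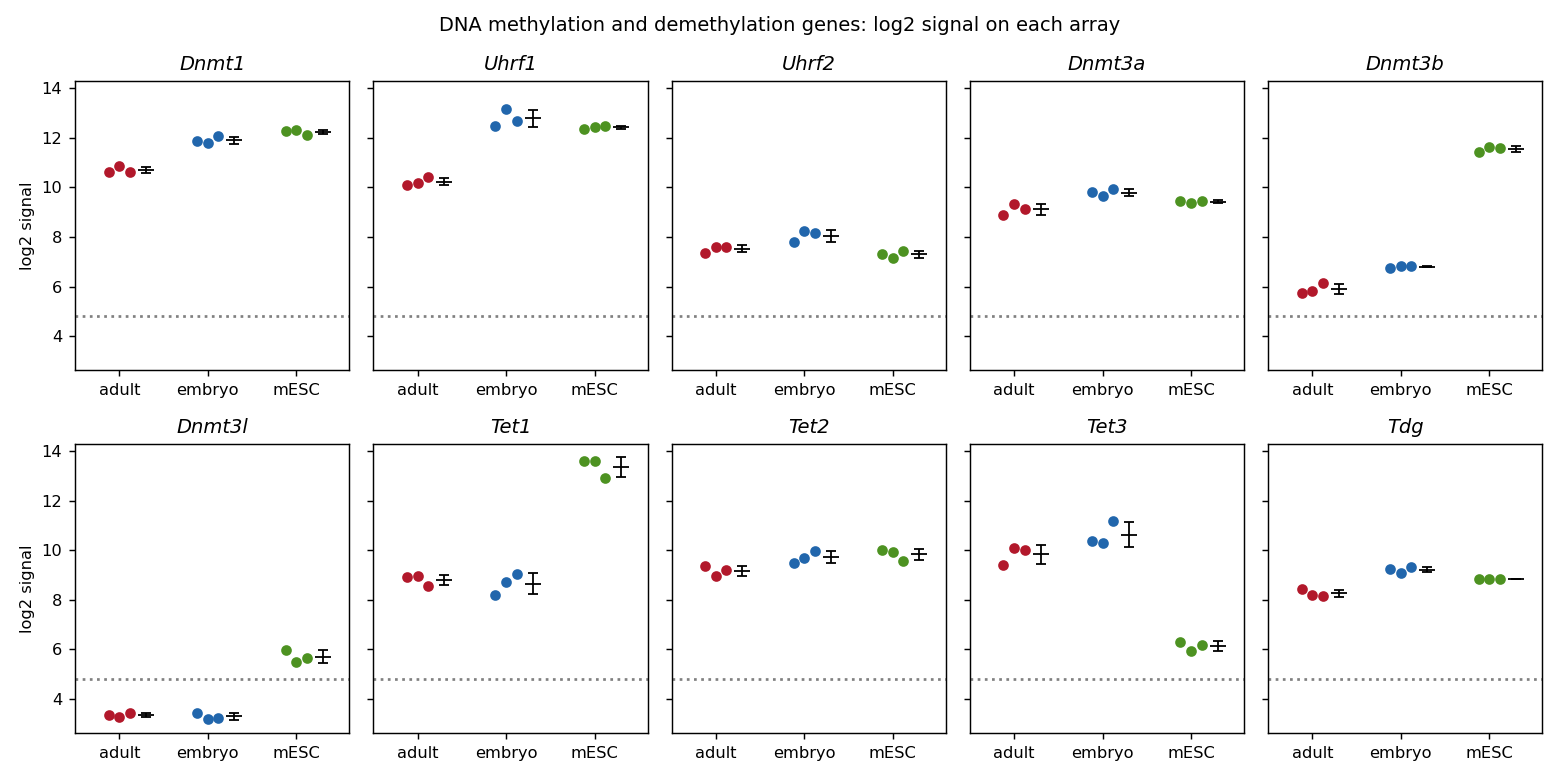
Log2 signal of the 10 genes on each array (points), with the mean and SD of the 3 arrays of a group beside them; the dotted line is the median of the negative-control probe sets at 4.81. Uhrf1 and Dnmt1 are low in adult cells, Dnmt3b, Dnmt3l and Tet1 are highest on the mESC arrays, and Tet3 is low there.

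Among the maintenance genes, values were lowest in adult cells for the recruiting factor and the methyltransferase. Uhrf1 and Dnmt1 were lower in adult cells than in embryonic dental cells and than in mESC, whereas embryo and mESC signals lay close together. The log2 signal of Uhrf1 was 10.11, 10.19 and 10.41 in adult cells. It was 12.48, 13.18 and 12.69 in embryo cells, and 12.36, 12.43 and 12.48 in mESC. All adult values lay more than 1 unit under every other array, while embryo and mESC ranges met at 12.48. The difference adult minus embryo was -2.55 ± 0.17 (SE of the limma fit, adjusted p = 9.52e-05), a 5.84-fold lower signal. Adult minus mESC was -2.19 ± 0.17 (adjusted p = 3.74e-05), and embryo minus mESC was 0.36 with a 95% interval of -0.04 to 0.76 (adjusted p = 0.16). Of all clusters tested, 0.167% had a more negative adult minus embryo difference than Uhrf1.

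Dnmt1 was likewise lowest in adult cells, by smaller steps. Its signals were 10.64, 10.85 and 10.61 in adult, 11.86, 11.8 and 12.06 in embryo, and 12.27, 12.31 and 12.13 in mESC. The groups did not overlap. Dnmt1 was lower in adult minus embryo by a log2 difference of -1.21 ± 0.1 (adjusted p = 0.00022), which is 2.31-fold lower, and adult minus mESC was -1.54 ± 0.1 (adjusted p = 1.39e-05). Embryo minus mESC was -0.33 ± 0.1 (adjusted p = 0.0396), below the 1 log2 unit that a call required here beside an adjusted p under 0.05. Under quantile normalisation the adult minus embryo difference was -0.96 (adjusted p = 0.000397) and so fell short of that minimum. With any 1 array left out, adult minus embryo ranged from -1.28 to -1.13 for Dnmt1 and from -2.7 to -2.35 for Uhrf1, and both stayed called.

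Names of the arrays' columns in a second deposited table carry a digit string with 2 values, read here as days, and both days held adult and embryo arrays. With that day as a block, Uhrf1 was -2.6 (adjusted p = 0.000448) and Dnmt1 -1.2 (adjusted p = 0.00115) in adult minus embryo. Within the first day, with 2 adult arrays and 1 embryo array, Uhrf1 was -3.03 and Dnmt1 -1.05, and within the second, with 1 adult array and 2 embryo arrays, -2.17 and -1.35. The first day had 1 residual degree of freedom and no cluster was called there by limma, with 6112 at an unadjusted p under 0.05.

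Uhrf2 encodes a protein that shares the domains of UHRF1 but is not known to replace it in maintenance. Between the dental stages Uhrf2 differed in the same direction as Uhrf1, by less, and adult cells were not under mESC. Uhrf2 signals were 7.37, 7.61 and 7.61 in adult, 7.79, 8.25 and 8.15 in embryo, and 7.32, 7.16 and 7.42 in mESC. Embryo values were the highest, and adult and mESC overlapped. The adult minus embryo difference of -0.53 ± 0.14 (adjusted p = 0.0328) and the embryo minus mESC difference of 0.76 ± 0.14 (adjusted p = 0.00419) were both under the 1-unit minimum, and adult minus mESC was 0.23 with a 95% interval of -0.08 to 0.54.

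**Figure D2:**
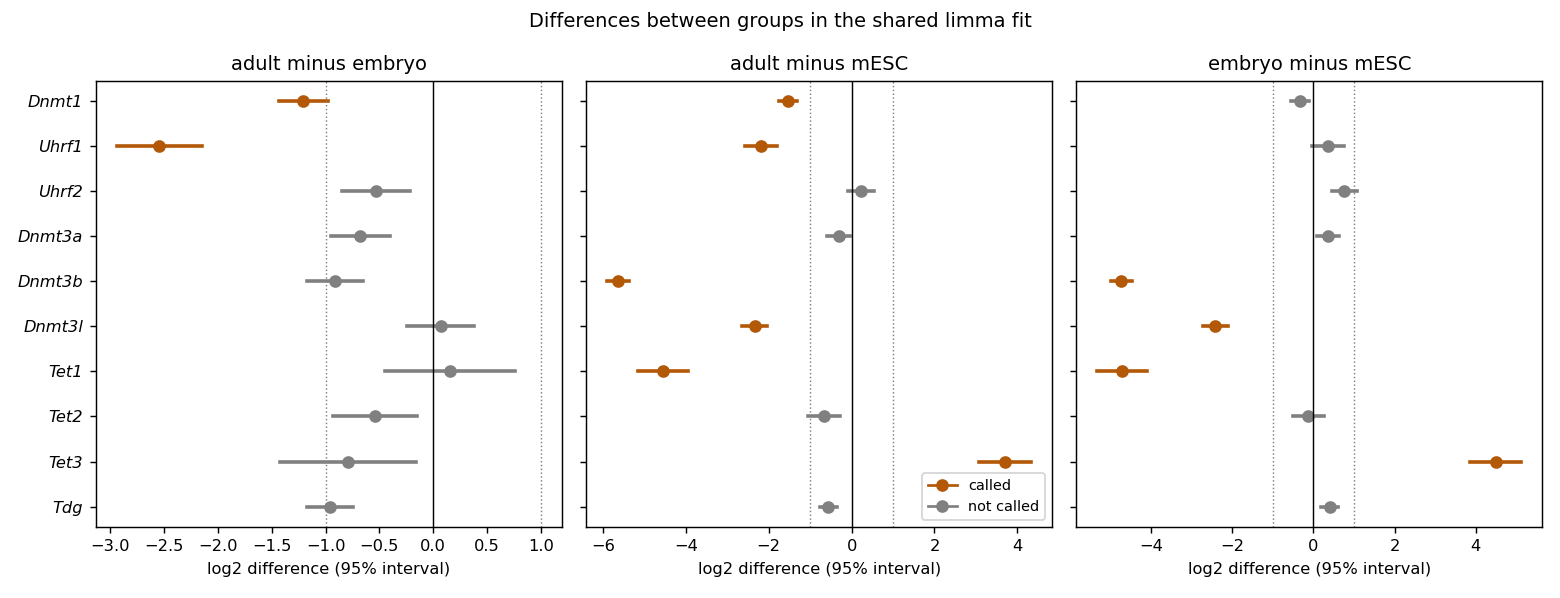
Log2 differences between groups for the 10 genes with 95% intervals of the limma fit; dotted lines mark a difference of 1, and orange marks genes that passed the adjusted p and the minimum difference. In adult minus embryo only Uhrf1 and Dnmt1 are orange; against mESC the widest differences are those of Dnmt3b, Tet1 and Tet3.

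Among the de novo genes, Dnmt3b and Dnmt3l were much lower in both dental groups than in mESC. Dnmt3a differed by less than 1 log2 unit in all 3 comparisons. Dnmt3b signals were 5.74, 5.82 and 6.14 in adult, 6.77, 6.83 and 6.83 in embryo, and 11.41, 11.63 and 11.58 in mESC. The 3 groups were fully separate. Against mESC, the adult difference was -5.64 ± 0.11 (adjusted p = 4.2e-08), a 49.9-fold lower signal, and the embryo difference -4.73 ± 0.11 (adjusted p = 1.09e-07), which is 26.5-fold lower. Adult minus embryo was -0.91 ± 0.11 (adjusted p = 0.0013), with a 95% interval of -1.17 to -0.65 that spans the 1-unit minimum. Without adult replicate 3 it was -1.03 and passed. Dental signals of Dnmt3b, 5.74 to 6.83, lay near the negative-control median of 4.81, so the size of its differences may be understated.

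Dnmt3l gave 3.37, 3.28 and 3.45 in adult, 3.45, 3.21 and 3.23 in embryo, and 5.99, 5.49 and 5.64 in mESC samples. All 6 dental values lay under the negative-control median of 4.81 and have no order. For Dnmt3l, adult minus mESC was -2.34 ± 0.13 (adjusted p = 7.89e-06) and embryo minus mESC -2.41 ± 0.13 (adjusted p = 1.07e-05), and the true sizes may be larger, since the dental values are at background. The pseudogene Dnmt3l-ps1 on chromosome 2, a copy that could share signal with Dnmt3l, did not show the mESC rise, with means of 4.39 in adult, 4.47 in embryo and 4.48 in mESC.

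Dnmt3a, the somatic de novo enzyme gene, had signals of 8.89, 9.33 and 9.13 in adult, 9.81, 9.64 and 9.93 in embryo, and 9.45, 9.37 and 9.46 in mESC. Embryo arrays were the highest and adult arrays the lowest, without overlap. Between the dental stages Dnmt3a differed by -0.68 ± 0.12 (adjusted p = 0.00713). Adult minus mESC was -0.31 with a 95% interval of -0.59 to -0.03 (adjusted p = 0.0813), and embryo minus mESC 0.37 with an interval of 0.09 to 0.64 (adjusted p = 0.0562). All 3 intervals exclude a difference of 1 log2 unit. The opposite-strand transcript Dnmt3aos was at 3.42, 3.34 and 3.39 on average in adult, embryo and mESC, under the negative-control median.

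Among the dioxygenase genes, Tet1 and Tet3 differed from mESC in opposite directions. Tet1 was lower in both dental groups than in mESC, Tet3 was higher, and Tet2 stayed within 1 log2 unit in all comparisons. Tet1 signals were 8.9, 8.94 and 8.57 in adult, 8.19, 8.72 and 9.03 in embryo, and 13.59, 13.59 and 12.89 in mESC. Adult and embryo overlapped, and mESC stood far above both. Tet1 differed in adult minus mESC by -4.55 ± 0.26 (adjusted p = 8.42e-06) and embryo minus mESC -4.71 ± 0.26 (adjusted p = 1.14e-05), or 23.5-fold and 26.2-fold lower. Between adult and embryo the difference was 0.16 with a 95% interval of -0.45 to 0.76, and its sign turned without embryo replicate 1 (-0.07) and within the second day (-0.04). The Tet1 cluster, chr10:62804570-62899118, extends past the annotated RefSeq start and sums over any alternative starts of the gene.

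Tet3 gave 9.4, 10.08 and 10.02 in adult, 10.38, 10.3 and 11.19 in embryo, and 6.3, 5.93 and 6.17 in mESC samples. Every dental array lay at least 3 units above every mESC array. Tet3 differed in adult minus mESC by 3.7 ± 0.27 (adjusted p = 2.86e-05), 13-fold higher, and embryo minus mESC 4.49 ± 0.27 (adjusted p = 1.81e-05), 22.5-fold higher. Its mESC signals lay near the negative-control median of 4.81, as those of Dnmt3b did in dental cells, so both sizes may be understated. Tet3 was the 1 member called higher in dental cells than in mESC, and its embryo minus mESC difference exceeded that of 99.8% of clusters. The stages differed by -0.79 (adult minus embryo) with a 95% interval of -1.42 to -0.16 (adjusted p = 0.101), although the 3 adult arrays lay under the 3 embryo arrays. This value ranged from -0.95 to -0.51 with 1 array left out, the smallest size being that without embryo replicate 3, and was -0.29 from the bi-weight means of the authors' deposited table.

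Tet2, the family member best known from blood cells, gave 9.35, 8.96 and 9.21 in adult, 9.48, 9.69 and 9.98 in embryo, and 10, 9.94 and 9.58 in mESC. Embryo and mESC overlapped and adult values were the lowest. For Tet2, adult minus mESC was -0.67 ± 0.17 (adjusted p = 0.0161), adult minus embryo -0.54 ± 0.17 (adjusted p = 0.0712), and embryo minus mESC -0.12 with a 95% interval of -0.51 to 0.27.

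The Tdg cluster carries 3 symbols, Tdg and the predicted copies Gm9855, annotated as a Tdg pseudogene, and Gm5806, so its signal may come from any of them. It read 8.43, 8.2 and 8.14 in adult, 9.25, 9.09 and 9.31 in embryo, and 8.82 on each of the 3 mESC arrays. The groups did not overlap. In adult minus embryo the cluster differed by -0.96 ± 0.09 (adjusted p = 0.000436), just short of the 1-unit minimum, which it reached without adult replicate 1 (-1.05) or embryo replicate 2 (-1.02) and within the second day (-1.14). Adult minus mESC was -0.56 ± 0.09 (adjusted p = 0.00173) and embryo minus mESC 0.4 ± 0.09 (adjusted p = 0.0134).

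Counted together, 2 of the 10 genes were called in adult minus embryo, both lower, against 6.42% of all 39601 clusters called, 2.83% higher and 3.59% lower. A further 4, Dnmt3a, Dnmt3b, Uhrf2 and Tdg, had an adjusted p under 0.05 with a smaller difference, and all 4 were negative, where 15.9% of clusters passed that p alone. Under adjusted p alone, 8 members passed in adult minus mESC and 7 in embryo minus mESC, beside 36.4% and 27.7% of clusters. The median over the members in adult minus embryo was -0.74, and over all clusters -0.01. In adult minus mESC, 6 were called, 1 higher and 5 lower, against 17.1% of clusters (6.86% higher and 10.3% lower), with a median of -1.1 against -0.07. In embryo minus mESC, 4 were called, 1 higher and 3 lower, against 11% (4.89% higher and 6.1% lower), with a median of 0.12 against -0.07. The 3 arrays of each group were separate for 8, 9 and 8 of the 10 members in these comparisons, beside 27.8%, 47.5% and 42% of clusters. Clusters separate in the higher direction made up 10.4%, 16.9% and 15.6%, and those separate in the lower direction 17.4%, 30.6% and 26.4%. The comparisons share groups, so these counts are not independent of one another.

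In the authors' deposited table, Uhrf1 (signed fold change 5.76, embryo over adult, adjusted p = 0.0371) and Dnmt1 (2.35, adjusted p = 0.0378) were also past 0.05 between the dental stages. Tdg (2.08, adjusted p = 0.0536) and Dnmt3b (2.02, adjusted p = 0.0682) passed a 2-fold change there but not the adjusted p of the authors' deposited table.

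Related genes were also set against each other within an array. The log2 ratio of Tet1 to Tet3 averaged -1.03 ± 0.48 in adult, -1.98 ± 0.34 in embryo and 7.22 ± 0.47 in mESC (SD, n = 3 each). That of Dnmt3b to Dnmt3a averaged -3.22 ± 0.27, -2.98 ± 0.15 and 2.11 ± 0.15 in the same groups, with adult and embryo overlapping. Probe sets differ in brightness, so only the change of a ratio between groups can be read, not its sign. Uhrf1 over Uhrf2 fell to 2.71 ± 0.11 in adult cells, against 4.72 ± 0.2 in embryo and 5.12 ± 0.13 in mESC. Uhrf1 over Dnmt1 was -0.46 ± 0.24 in adult, 0.88 ± 0.44 in embryo and 0.19 ± 0.14 in mESC, so that Uhrf1 differed more than Dnmt1 between the dental stages. Dnmt3l over Dnmt3b was -2.53 ± 0.16, -3.51 ± 0.17 and -5.83 ± 0.37 in adult, embryo and mESC, with all dental Dnmt3l values under the negative-control median. Of 15 ratio comparisons (5 pairs, 3 group pairs), 14 had fully separate arrays. Each gave p = 0.1 in a two-sided exact permutation test, the smallest value that 3 against 3 arrays allow, and 0.107 after Benjamini-Hochberg adjustment. The exception was Dnmt3b over Dnmt3a in adult against embryo (exact p = 0.4). The share of separate arrays over other pairs of genes was not computed, so the count has no background beside it.

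**Figure D3:**
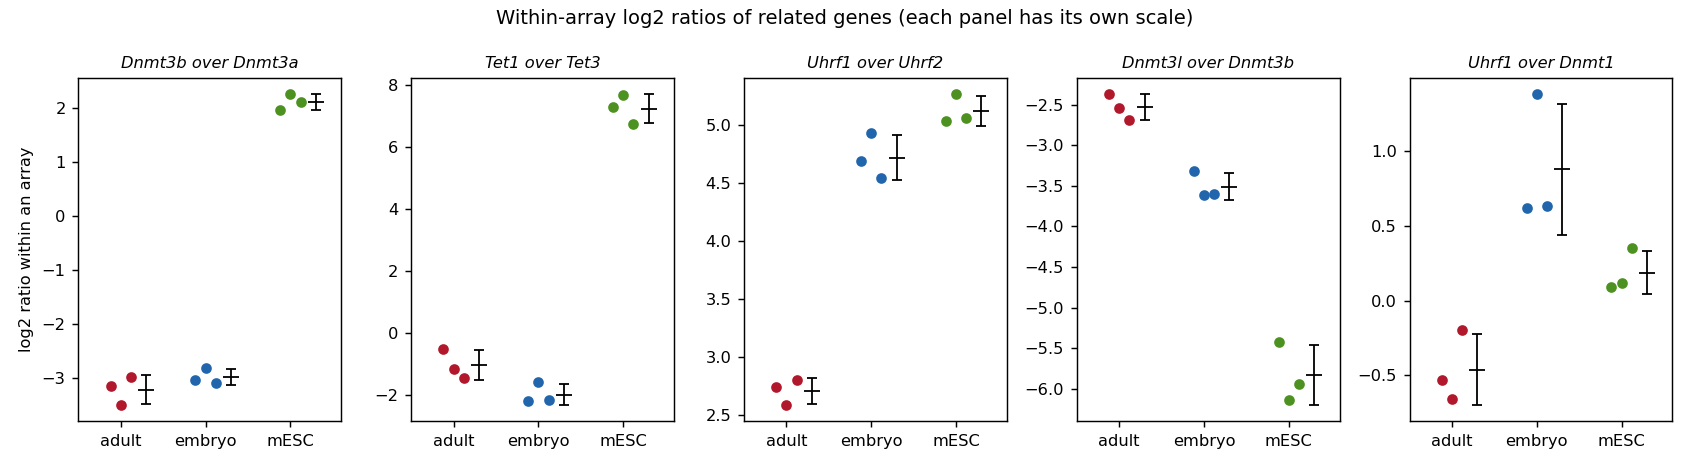
Log2 ratio of 2 related genes on each array (points), with mean and SD of the 3 arrays; each panel has its own vertical scale. Tet1 over Tet3 and Dnmt3b over Dnmt3a differ most between mESC and both dental groups, and Uhrf1 over Uhrf2 is lowest in adult cells.

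Genes of DNA replication and division were also lower in adult cells, and their values stand here beside those of Dnmt1 and Uhrf1, which are known to be transcribed most in dividing cells. Of 20 such genes, 17 were lower in adult than in embryo cells and 0 higher, beside 3.59% of all clusters called lower. The median difference was -1.52. Their mean log2 signal was 9.19 to 9.66 in adult, 10.97 to 11.21 in embryo and 11.59 to 11.72 in mESC samples. Ccne1, which encodes cyclin E1, differed by -3.61 ± 0.24 in adult minus embryo (adjusted p = 9.5e-05) and Rrm2, of nucleotide synthesis, by -2.24 ± 0.22 (adjusted p = 0.000508). The proliferation marker Mki67 had 13.81, 14.43 and 14.54 in adult, 15.41, 15.45 and 15.51 in embryo, and 14.39, 14.4 and 13.97 in mESC, so adult and mESC overlapped for this gene. Over the list, however, 15 of 20 were lower in adult cells than in mESC and 0 higher (median -2.19), beside 10.3% of clusters called lower. Among the 15 was Pcna, the replication clamp gene, at -1.23 ± 0.22 (adjusted p = 0.00302). Whether the change of Uhrf1 and Dnmt1 follows the share of dividing cells was not tested.

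**Figure D4:**
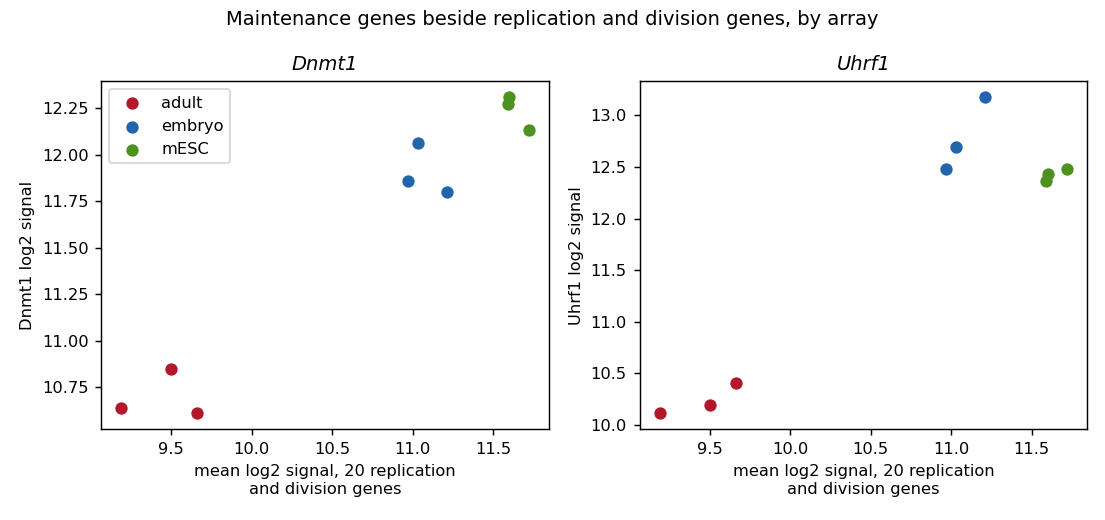
Log2 signal of Dnmt1 (left) and Uhrf1 (right) against the mean log2 signal of 20 replication and division genes, 1 point per array. Adult arrays, at 9.19 to 9.66 on the horizontal axis, have the lowest values of both genes, and Uhrf1 reaches on the embryo arrays (12.48 to 13.18) at least the values of the mESC arrays.

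Other genes of the pathway were read from lists of known function. Of 15 partners of maintenance methylation, 7 were lower in adult than in embryo, 0 were higher and 8 were not called (median -0.86), beside 3.59% of all clusters called lower. Against mESC, 8 were lower in adult cells and 7 were not called (median -1.45), beside 10.3% of clusters. These 8 include Hdac1, whose cluster by its name lies on another chromosome than the gene. Hells, a chromatin remodeller needed for normal methylation, had 8.54, 8.68 and 8.78 in adult, 10.15 on each embryo array, and 12.28, 12.21 and 12.13 in mESC. Its steps were -1.48 ± 0.07 for adult minus embryo (adjusted p = 3.15e-05) and -2.06 ± 0.07 for embryo minus mESC (adjusted p = 1.04e-06), so that unlike Uhrf1 it also separated embryo from mESC. Zfp57, whose protein protects methylation at imprinted loci, was lower by -1.59 ± 0.26 in adult minus embryo (adjusted p = 0.00535) and -1.67 ± 0.26 in embryo minus mESC (adjusted p = 0.00245). Trim28, its corepressor, was lower in adult than in embryo (-1.47 ± 0.08, adjusted p = 4.68e-05).

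A list of 14 genes was read for the steering or limiting of de novo methylation. It also held Trdmt1, which encodes an RNA methyltransferase, and Dppa3, which acts on a maintenance factor. Of the 14, 1 was lower in adult than in embryo, and 6 and 5 were lower in adult and embryo than in mESC. All clusters called lower made up 3.59%, 10.3% and 6.1% in these comparisons, and 1 of 14 is near the first share. The gene lower in adult than in embryo was Nsd2, which encodes a histone H3 lysine methyltransferase (-1.01 ± 0.13, adjusted p = 0.00189), and it was also the 1 gene higher in embryo than in mESC (1.26 ± 0.13, adjusted p = 0.000325). The adult minus embryo call of Nsd2 was lost in 7 of 22 alternatives, with values from -1.12 to -0.93, among them each of adult replicates 1 and 3 and embryo replicates 2 and 3 left out. The widest were Dppa3, whose protein restrains UHRF1 in oocytes, and Dppa2 and Dppa4, which keep bivalent promoters unmethylated in mouse stem cells. Dppa3 differed by -7.59 ± 0.12 in adult minus mESC (adjusted p = 1.39e-08) and -7.58 ± 0.12 in embryo minus mESC (adjusted p = 1.58e-08). Dental means of these 3 genes, 3.41 to 4.74, lay below the negative-control median.

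A list of 11 CpG-binding proteins held readers of methylated CpG and also Cxxc1, Kmt2a and Kmt2b, whose CXXC domains bind unmethylated CpG. Against mESC, Mbd1, Mbd2, Mbd5 and Zbtb4 were higher in adult cells and Mbd1, Mbd2, Mbd5 and Kmt2a in embryo cells, with list medians of 0.67 and 0.79. These 4 of 11 in each comparison stand beside 6.86% and 4.89% of all clusters called higher. No gene of the list was called lower, beside 10.3% and 6.1% of all clusters. At those shares few lower calls would fall among 11 genes, so their absence is not read as a result. The calls of Kmt2a in embryo minus mESC (1.03 ± 0.28, adjusted p = 0.0277) and of Mbd5 in adult minus mESC (1.01 ± 0.13, adjusted p = 0.000569) were lost in 7 and 6 of 21 alternatives. Mbd2, which links methylated DNA to the NuRD complex, had 8.97, 9.6 and 8.85 in adult, 8.55, 8.55 and 8.61 in embryo, and 6.4, 6.56 and 6.48 in mESC, a difference of 2.66 ± 0.18 in adult minus mESC (adjusted p = 1.72e-05) and 2.09 ± 0.18 in embryo minus mESC (adjusted p = 9.95e-05). Mbd1, a related reader, was higher in adult than in mESC by 1.56 ± 0.19 (adjusted p = 0.000413). Zbtb4, a zinc finger reader, was the 1 gene of this list called between dental stages, with 8.11, 8.0 and 7.83 in adult and 6.73, 6.75 and 6.75 in embryo (1.24 ± 0.12, adjusted p = 0.000423), a call lost within the second day alone.

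In the oxidation and repair branch, calls between the dental stages are read beside the 6.42% of all clusters called, 2.83% higher and 3.59% lower. Of 14 TET cofactors and partners, 2 were lower in adult than in embryo and none higher, among them Idh1, which makes the 2-oxoglutarate that TET enzymes use (-1.24 ± 0.13, adjusted p = 0.000647, and not called under quantile normalisation). The other was Cxxc4, whose protein binds and destabilises TET2 (-1.05 ± 0.29, adjusted p = 0.0473), a call lost in 12 of 22 alternatives, with values from -1.35 to -0.81. Cxxc4 was higher than in mESC by 2.15 ± 0.29 in adult (adjusted p = 0.000713) and 3.2 ± 0.29 in embryo (adjusted p = 0.000146). Its mESC signals of 4.91, 4.89 and 4.88 lay near the negative-control median of 4.81, so both sizes may be understated. Of 15 base excision repair genes, 1 was lower in adult than in embryo, the abasic site endonuclease gene Apex1 (-1.5 ± 0.18, adjusted p = 0.00125, not called within the second day alone). A count of 1 in 15 is near the share over all clusters, so it is not read as a result about the list. Against mESC, 4 and 3 were lower in adult and embryo cells, beside 10.3% and 6.1% of clusters called lower. Among them, the adenine glycosylase gene Mutyh was at -2.33 ± 0.11 in adult (adjusted p = 2.65e-06) and -1.63 ± 0.11 in embryo (adjusted p = 2.66e-05). Of 4 deaminase genes, Apobec1 was higher in adult than in embryo (2.1 ± 0.17, adjusted p = 0.000237), as were 13 of the 14 macrophage markers, whose part in this was not tested.

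Some genes of methyl group supply were lower in adult cells. Of 24 genes of folate, methionine and methyl donor metabolism, 8 were lower in adult than in embryo and none higher (median -0.22). Against mESC, 14 were lower in adult (median -1.62) and 9 in embryo, with 1 higher in embryo. All clusters called lower made up 3.59%, 10.3% and 6.1% in these comparisons. Of the 24 genes, 8 had an adult mean, 7 an embryo mean and 3 an mESC mean below the negative-control median. Shmt2, the mitochondrial serine hydroxymethyltransferase gene, had 10.07, 10.43 and 10.08 in adult, 12.54, 13.2 and 12.52 in embryo, and 12.87, 12.82 and 13.08 in mESC, with embryo and mESC overlapping as for Uhrf1. Its adult minus embryo difference was -2.56 ± 0.2 (adjusted p = 0.000168). The cluster read for Ahcy, whose enzyme clears the methylation inhibitor S-adenosylhomocysteine, differed by -2.11 ± 0.33 (adjusted p = 0.00393). By its name this cluster lies on another chromosome than the Ahcy gene. Its signal therefore cannot be assigned to Ahcy, although it stays among the 8 genes counted lower. Tdh and Gldc, enzyme genes of threonine and glycine breakdown known from mouse stem cells, were at -6.44 ± 0.1 and -7.3 ± 0.14 in adult minus mESC (adjusted p = 1.09e-08 and 4.26e-08), with dental means from 4.18 to 5.69.

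Germline genes that promoter methylation is known to silence in mouse somatic cells were low in both dental groups. Between adult and embryo, limma called 0 of 16, and 0 had an unadjusted p under 0.05 (median 0.05). Over all 39601 clusters, 6.42% were called and 10579 had an unadjusted p under 0.05. Of the 16, 15 had an adult mean, 14 an embryo mean and 6 an mESC mean below the negative-control median. With most dental values at background few calls could arise between the stages, so their absence is not read as a result. Against mESC, 9 were lower in adult and 9 in embryo, beside 10.3% and 6.1% of clusters called lower. Hormad1, a meiotic chromosome axis gene, had 4.21, 4.05 and 4.41 in adult, 4.17, 4.19 and 4.1 in embryo, and 10.01, 10.66 and 10.79 in mESC. Mael and Sycp3 were likewise lower than in mESC, by -5.79 ± 0.12 and -5.46 ± 0.14 in adult (adjusted p = 5.84e-08 and 1.49e-07). Methylation itself was not measured.

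**Figure D5:**
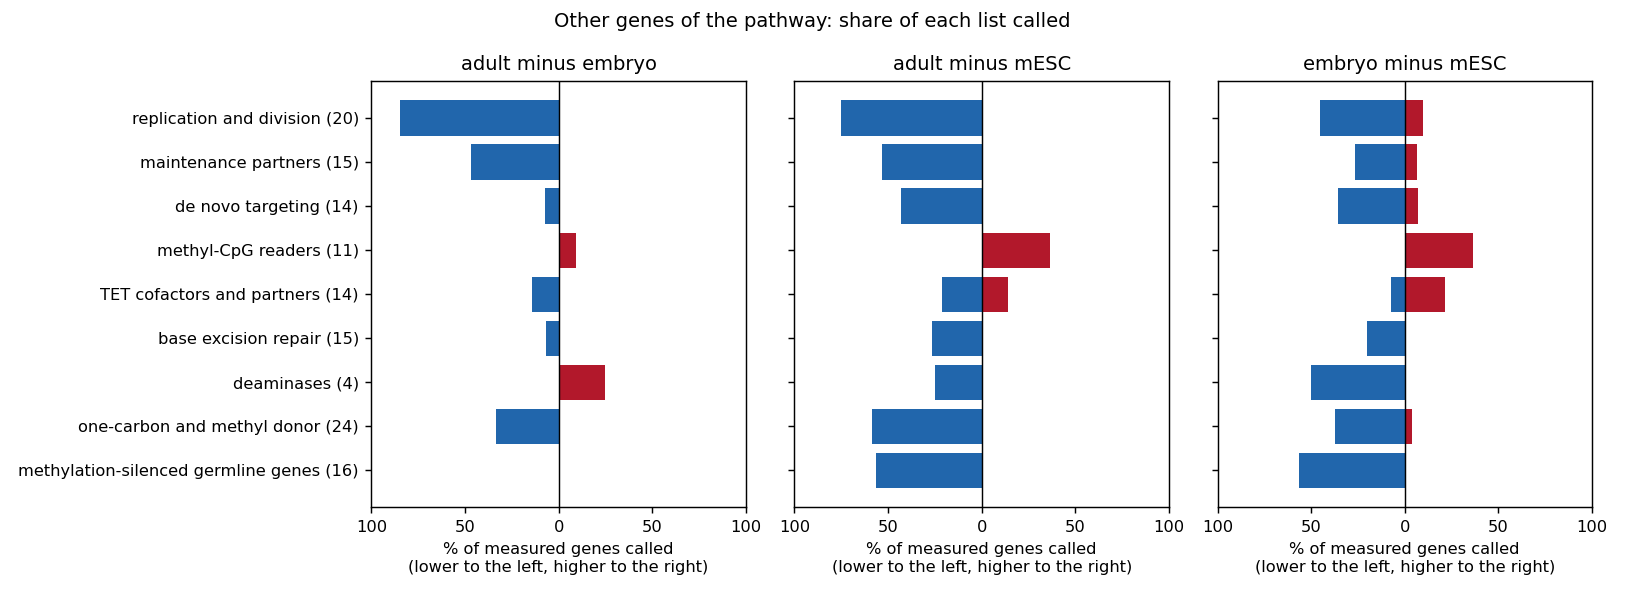
Share of the measured genes of each pathway list (number in brackets) called lower (left, blue) or higher (right, red) in each comparison. Replication and division genes are called lower in adult minus embryo for 17 of 20, the CpG-binding list (labelled methyl-CpG readers, with 3 CXXC genes) is called only to the right, and germline genes are called only against mESC.

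The closest profiles among 17513 named clusters were found by the root mean square difference between mean-centred log2 signals over the 9 arrays. Nearest to Dnmt1 were Dicer1 (0.09), which encodes the nuclease of microRNA maturation, and Drosha (0.1). Nearest to Uhrf1 were Nup210 (0.15), a nuclear pore gene, and Cldn6 (0.15), a claudin gene. Dnmt3b lay nearest to Zscan10 (0.18), a zinc finger gene of stem cells, and to the polycomb gene Phc1 (0.22). For Tet1 the nearest were the germline genes Tex19.1 (0.27) and Stag3 (0.29), and for Dnmt3l Slc37a1 (0.09) and the germline gene Stk31 (0.12). Tet3 lay nearest to Chd3 (0.28), a chromatin remodeller gene, and to Bcl11b (0.29), a transcription factor of dental epithelium. Profiles of 3 groups are easily matched, so these are descriptions of shape over 9 arrays and rest mainly on the 3 group means.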

How the data were processed

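RNA of the 9 samples was read on Affymetrix Mouse Transcriptome Arrays, as the authors' array names show. The deposited value table holds a log2 signal for each transcript cluster on each array. The submitters' processing notes name RMA, Affymetrix Expression Console and Transcriptome Analysis Console, with no version. Such scaling between arrays can hide a shift common to most genes and compresses dim signals. The authors' deposited comparison tables give bi-weight mean log2 signals, signed fold changes (a score, minus the inverse where below 1) and p-values of an analysis of variance with adjusted p-values, per the file headers. Detection calls and the genome build are not given in the sources used here, and cluster coordinates are those of the authors' annotation. All 10 clusters overlap the RefSeq GRCm38.p6 positions of their genes.

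Groups and replicate numbers came from the sample titles. Clusters with at least 1 gene symbol (39601, of which 3042 carry several) were fitted with limma 3.58.1 (R 4.3.3) over all 9 arrays, as 3 group means with 6 residual degrees of freedom. The Benjamini-Hochberg adjustment ran over all of them. A call needed an adjusted p under 0.05 and a log2 difference of at least 1, and "higher" and "lower" of pathway genes mean called. No signal filter was applied, and the number of arrays limits the precision. Negative controls were 5222 control probe sets named so on the array, with a median of 4.81, a 5th percentile of 2.58 and a 95th percentile of 9.27.

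The 10 genes and the 14 lists were chosen with earlier results of these data known. Of 189 list entries, 185 had a cluster of exactly 1 symbol, older symbols being matched through RefSeq. Zbtb38, Rybp, Parp1 and Tfcp2l1 were not measured in this way. Where several clusters fitted a list gene, the brightest was taken, and its position was not compared with that of the gene. By their names, the clusters read for Ahcy and Hdac1 lie on other chromosomes than these genes. Both stay in the list counts, Hdac1 as a maintenance partner lower in adult cells than in mESC. Named genes are the 10 members, up to 4 called genes per list and comparison whose arrays do not overlap, Mki67, Pcna, up to 4 genes of each marker list, and the 3 nearest profiles per member. Alternatives covered normalisation, the variance model, the clusters and samples fitted, each array left out, replicate and day blocks, and the authors' deposited table. Python 3.11.15 and pandas 2.3.3 handled the files.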

Additional observations from a re-analysis of the deposited data

How the results depend on the processing

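Over 664 values of the 10 genes under the alternatives, 655 kept direction and side of the threshold, 3 lost the call, 4 gained it and 2 changed sign. The sign changes were those of Tet1 in adult minus embryo (0.16), at -0.07 without embryo replicate 1 and -0.04 within day 2 alone. Leaving out 1 array gave -0.07 to 0.35. Mki67 in adult minus mESC (0.01) ranged from -0.13 to 0.23 when 1 array was left out. Members called in adult minus embryo numbered 6 under adjusted p alone, 1 under quantile normalisation, where Dnmt1 was at -0.96, and 0 within day 1 alone, which has 1 residual degree of freedom. All clusters called there moved to 6314 under adjusted p alone, 0 within day 1 (6112 at an unadjusted p under 0.05) and 1531 within day 2. Adjusted p alone gave 14425 clusters in adult minus mESC, and 7 members and 10966 clusters in embryo minus mESC. Leaving out 1 array gave 2 to 3 members called in adult minus embryo, 6 in adult minus mESC and 4 in embryo minus mESC, beside 2089 to 2691, 6565 to 6889 and 3925 to 4444 of all clusters. Tdg was called without adult replicate 1 (-1.05), without embryo replicate 2 (-1.02) and within day 2 (-1.14), and Dnmt3b without adult replicate 3 (-1.03). Quantile normalisation raised the share of higher calls in adult minus embryo to 53.3%, against 44.1% as reported. With the replicate number as a block, Dnmt1 had an adjusted p of 0.00217 and Uhrf1 of 0.000793 in adult minus embryo, and 2, 6 and 4 members were called as before. Same-numbered samples deviated together with correlations of only -0.08 to 0.154, so the numbers were not taken as pairs. The causes of these moves were not tested, beyond fewer arrays where arrays were left out. The alternative of averaging several clusters per gene had nothing to average. Dnmt3l was outside the brighter clusters and Tdg outside the clusters of 1 symbol. The mESC arrays lie on 1 day, so day and mESC can be separated only through the dental arrays. Signals near the negative-control median limit Dnmt3l, Dnmt3b in dental cells and Tet3 in mESC. The controls' 95th percentile of 9.27 also lies above every Uhrf2 signal, every dental Tet1 signal and most Tdg signals, so these are within the range of the controls too. Tet3 in adult minus embryo (-0.79) was -0.51 without embryo replicate 3 and -0.29 in the authors' deposited table.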

Other observations

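Further genes of the pathway lists were called with separate arrays. Cdca7, whose protein works with the remodeller HELLS, had 9.11, 9.49 and 9.43 in adult, 10.46, 10.56 and 10.46 in embryo, and 11.68, 11.62 and 11.8 in mESC, so it stepped between all 3 groups as Hells did. Its difference was -2.36 ± 0.11 in adult minus mESC and -1.21 ± 0.11 in embryo minus mESC (limma, adjusted p = 0.000116 in the second). Pclaf, a PCNA-binding factor linked to DNMT1 recruitment, had 9.46, 9.52 and 10.03 in adult, 11.33, 11.67 and 11.07 in embryo, and 10.73, 10.54 and 10.59 in mESC. It was highest in embryo cells, and adult minus embryo was -1.69 ± 0.19 (limma, adjusted p = 0.000967).

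Gadd45a, a stress response gene proposed to act in demethylation, was lower in both dental groups than in mESC, by -1.89 ± 0.15 in adult and -1.93 ± 0.15 in embryo, and adult and embryo arrays overlapped. The repair glycosylase gene Nthl1 was also lower than in mESC, at -2.0 ± 0.27 in adult and -1.79 ± 0.27 in embryo against mESC. The direction of both differs from that of Tet3, which was higher in both dental groups than in mESC.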
